A study of Gallus gallus with 12 samples.

Results

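The genes described here encode the proteins of the cytosolic ribosome, measured in the pineal gland of chicks with and without a pulse of light. They were chosen by name. Every probe set that the platform annotation ties to a single gene was taken if the symbol begins with RPL or RPS and a digit, or with RPLP, and the ribosomal S6 kinases (RPS6K symbols) were left out. This gave 67 genes with 141 probe sets, and for each gene the probe set with the highest mean over the 12 arrays stands for it. Of the 67 genes, 66 passed the filter on dim probe sets and were tested, among 23063 probe sets tested in all, which name 10406 genes. The tested genes comprise 42 of the large subunit, 23 of the small subunit, and RPS19BP1, which encodes a nucleolar protein that binds RPS19 in human cells, is no part of the ribosome, and was caught by the name rule.

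The ribosome reads mRNA on its small subunit and joins amino acids on its large subunit, and each subunit is built in the nucleolus from ribosomal RNA and one copy of most of its proteins. The proteins are needed in matching amounts. Their mRNAs are among the most abundant in most cells, and in vertebrates they share a pyrimidine tract at the 5′ end through which the mTOR pathway sets how actively they are translated, so that protein output can change while mRNA levels stay level. The chicken pineal gland holds its own photoreceptors and its own circadian clock, and makes melatonin at night.

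Male chicks were kept for 7 days under cycles of 12 h of light and 12 h of darkness, and then for 1 day in constant darkness; their age is given as 8 days. In the light groups they received a 1-h light pulse that began at circadian time 6, 14 or 22 (CT6, CT14 and CT22). CT6 falls in the subjective day and the others in the subjective night, CT14 near its start and CT22 near its end. The dark groups of the same 3 times stayed in darkness. Glands were taken at the end of the pulse, RNA was extracted with TRIZOL, and 9 µg of total RNA from 6 pooled glands was labelled for each Affymetrix array, with 2 biological samples in each of the 6 groups. In pooled whole glands, fewer cells of a type and less RNA per cell cannot be told apart. The labels give no strain and no brightness or colour of the light.

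The 2 arrays of each group correlated at r = 0.964 to 0.975 over the probe sets. Of 12 pineal and photoreceptor markers, 9 were found and tested, among them AANAT and ASMT, the last enzymes of melatonin synthesis. Their summed level was between 24863 and 29628 on the normalized linear scale, so that they were present in every array. Choroid plexus markers (4 of 4 found) summed to 7776 to 9321, and markers of glia (4 of 6 found) to 860 to 1240. Erythrocyte markers (6 tested of 11) summed to 6091 to 9946, and those of fibroblasts and meninges to 8686 to 10479. Macrophage markers summed to 3971 to 5589 and lymphocyte markers to 2042 to 3590. The ratio of 3′ to 5′ signal of the actin control, a measure of RNA integrity, was between 3.09 and 4.67. The same ratio was lower and varied less for the other controls, between 1.16 and 1.31 for GAPDH and between 1.46 and 1.57 for EF1A. Values below are log2 intensities after quantile normalization, on which one unit is a doubling, and changes are differences between group means with standard errors (SE) taken from limma.

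The ribosomal protein genes were among the brightest on the array. Their median level was 12.1 on a scale that ends at 13.5, 57 of the 66 lay above the 99th percentile of all probe sets (log2 10.7) and 62 above the 95th (8.96). Of the 93 tested probe sets above log2 12, 42 belonged to these genes. A level depends on the probe sequences, so the order of levels between genes was not read. The 6 genes under log2 10 were RPL22L1, RPL31, RPL7L1, RPS13, RPS27L and RPS19BP1. RPL3L, a paralogue of RPL3 known from muscle in mammals, was the gene that did not pass the filter. Its values were 0.17 and 0.00 in CT6 light, against 0.69 and 1.30 in CT6 dark, where 0 is the floor of the scale. They were 0.64 and 0.54 in CT14 light against 3.21 and 0.26 in CT14 dark, and 2.89 and 2.37 in CT22 light against 3.35 and 3.84 in CT22 dark. The values lie near the floor, only the 3.84 of CT22 dark exceeds the filter limit of 3.73 (which applies to the mean), and no change was read from them.

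Levels of the family differed little between the 6 groups. The range between the lowest and the highest group mean of a gene had a median of 0.114 over the 66 genes, and 56 genes had a range under 0.2. The same median was 0.250 for the 94 other probe sets of comparable brightness and 0.505 for all probe sets tested. Quantile normalization gives each rank the same value in every array, and these genes occupy many of the highest ranks, so it narrows their range by construction. With the deposited values the medians were 0.261 for the family, 0.331 for the others of like brightness and 0.617 for all. With each array centred on its median they were 0.269, 0.332 and 0.511. The range of the family was the smallest of the 3 under each of these scalings, and the size of the gap depended on the scaling. After quantile normalization single arrays were close as well: the 2 arrays of a group differed by a median of 0.0449 to 0.0634 per gene. As deposited, the family's median deviation in an array was 0.196 and -0.0234 in CT22 dark. It was -0.109 and 0.0334 in CT14 dark, and 0.0958 and -0.0661 in CT6 light. The pairs lay closer in CT6 dark (-0.135 and -0.123), CT14 light (-0.0348 and -0.0193) and CT22 light (0.0962 and 0.0690).

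RPL5 had the narrowest range of group means after quantile normalization. It binds the 5S ribosomal RNA together with RPL11, and in mammals both bind and restrain MDM2 when ribosome assembly fails. RPL5 had 11.93 and 11.92 in CT6 light and 11.97 and 11.91 in CT6 dark, 11.90 and 11.94 in CT14 light and 11.94 and 11.91 in CT14 dark, and 11.91 and 11.89 in CT22 light and 11.92 and 11.89 in CT22 dark. Its 6 group means span 0.040, less than the gap between some replicate pairs. The other 3 with the narrowest ranges were RPS27A, made as a fusion with ubiquitin (range 0.0565), RPS6, the protein phosphorylated by S6 kinases (0.0570), and RPS4Y1 (0.0595), as the platform annotation names it.

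The widest ranges belonged to RPS13 (1.04), RPL23 (0.474), RPS27L (0.356), RPS19BP1 (0.337), RPS16 (0.325), RPS15 (0.239), RPS28 (0.228) and RPL22L1 (0.222). For RPS13 and RPL23 the arrays of some groups lay far apart. RPS13, whose brightest probe set that names only this gene averaged 4.85, read 4.47 and 4.37 in CT6 light against 3.38 and 5.29 in CT6 dark, 5.45 and 5.19 in CT14 light against 4.67 and 4.77 in CT14 dark, and 5.18 and 5.58 in CT22 light against 5.10 and 4.78 in CT22 dark. Its groups overlapped at CT6 and were separate at the other times, and its residual SD was 0.576, against a median of 0.0522 for the family. RPL23 read 10.23 and 10.18 in CT6 light against 10.18 and 9.68 in CT6 dark, 9.68 and 10.32 in CT14 light against 10.16 and 10.65 in CT14 dark, and 9.88 and 10.39 in CT22 light against 10.24 and 9.81 in CT22 dark (residual SD 0.336). Its light and dark groups overlapped at all 3 times. Neither gene passed a test in any comparison.

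**Figure D1:**
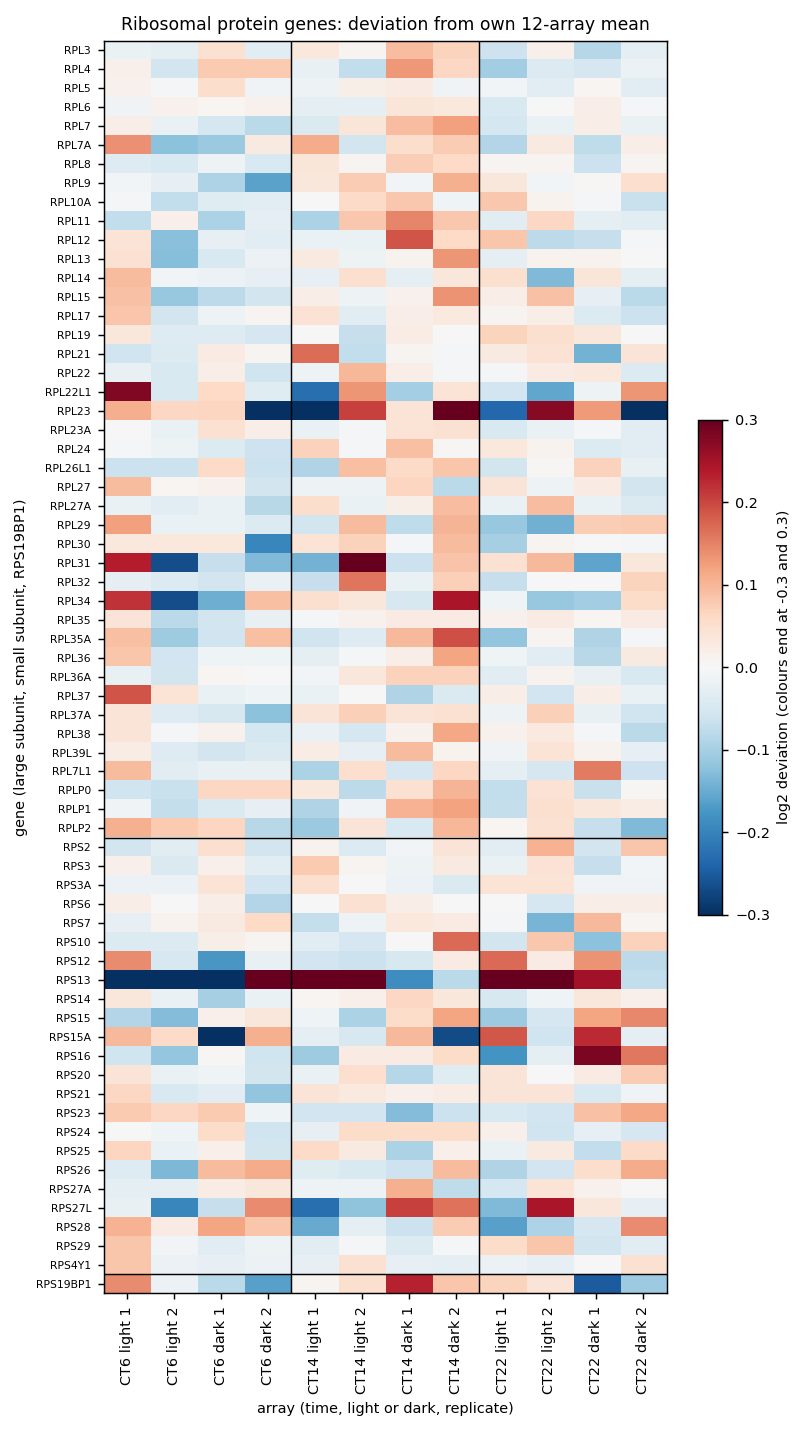
Deviation of each of the 66 genes from its own mean over the 12 arrays (log2; colours end at -0.3 and 0.3). Rows are genes by subunit and columns are arrays, light left of dark at each time. Most cells are pale, RPS13, RPL23 and RPL31 vary within groups, and the CT14 dark columns are red for many large-subunit genes.

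The first question was whether the light pulse changed these mRNAs within its 1 h. At CT6, 0 of 66 genes passed an adjusted p of 0.05 in the limma fit, where 0.221% of all probe sets did, and 3 had an unadjusted p under 0.05, where the background was 9.94%. With arrays centred on their medians 3 passed at CT6, all higher, where 1.08% of all probe sets passed in either direction and 1.05% higher. At CT14, 0 of 66 passed, against a background of 1.67%, and 6 had an unadjusted p under 0.05 (background 14%). At CT22, RPS16 and RPS15 passed and were lower in light, 2 of 66, beside 3.64% of all probe sets in either direction, 1.92% lower and 1.73% higher. A count of 2 of 66 is close to that background, so it is not a result about the family as a whole. The unadjusted count at CT22 was 7, against 16.9%. Averaged over the 3 times, the same RPS15 and RPS16 passed, both lower, beside 3% of all probe sets in either direction, 1.22% lower and 1.78% higher. No gene passed the F test of whether the light effect differed between times (background 1.35%).

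After quantile normalization, the 95% confidence interval of the light effect lay within a 1.5-fold change in either direction for 64 genes at CT6, 63 at CT14 and 64 at CT22. It lay within 1.25-fold for 57, 58 and 55 genes at those times, and for 64 in the average over times. The narrower bound depended on the scaling: with arrays centred on their medians the interval lay within 1.25-fold for 12, 51 and 51 genes and as deposited for 6, 49 and 46, while 62 to 65 lay within 1.5-fold at each time under both. After quantile normalization the genes outside 1.5-fold were RPL23 and RPS13 at each time, with RPS27L at CT14. The median light effect was 0.02 at CT6 (38 of 66 above 0), -0.04 at CT14 (21 above 0) and 0.01 at CT22 (35 above 0); as deposited it was 0.15, 0.02 and -0.00308, with arrays centred on their medians 0.21, -0.10 and 0.09, and with cyclic loess normalization -0.02, -0.07 and 0.02, so its sign depended on the scaling at each time. For comparison, all probe sets had 50.2%, 50.2% and 48.8% above 0. In the average over times the median light effect was -0.01, with 31 of 66 above 0 and 49.2% of all probe sets. The typical SE of a single gene was 0.0597. Groups did not overlap, with light higher, for 10 genes at CT6 (background 20.9%), 7 at CT14 (22.1%) and 14 at CT22 (23.2%), and with light lower for 10 (20%), 21 (21.5%) and 11 (24.7%).

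**Figure D2:**
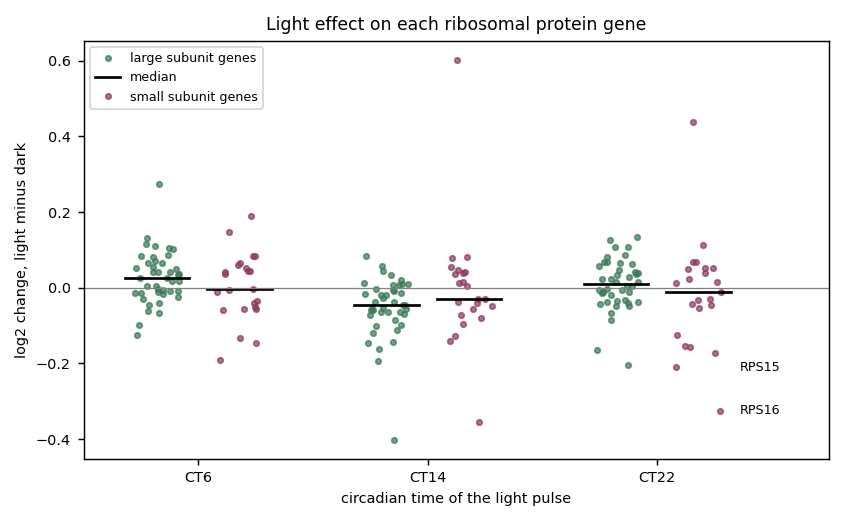
Log2 change, light minus dark, of each gene of the large subunit (left cluster) and the small subunit (right cluster) at each time of the pulse, after quantile normalization; bars are medians. Most points lie within 0.2 of 0, and RPS15 and RPS16, labelled at CT22, are the genes past the threshold; the other points beyond 0.2 are RPL23 at CT6 (0.27) and CT14, RPS13 at CT14 and CT22, RPS27L at CT14 and RPL29 at CT22, which did not pass.

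RPS15 sits in the head of the small subunit near the decoding site and in human and yeast cells is needed for export of the immature small subunit from the nucleus. Its level was 12.01 and 11.97 in CT6 light against 12.12 and 12.13 in CT6 dark, 12.09 and 12.01 in CT14 light against 12.16 and 12.22 in CT14 dark, and 11.99 and 12.05 in CT22 light against 12.22 and 12.24 in CT22 dark. All 6 light arrays (11.97 to 12.09) lay below all 6 dark arrays (12.12 to 12.24), which held for 0.434% of all probe sets and, in the family, for RPS15 alone. The opposite, all light arrays above all dark arrays, held for 0 of the 66 genes and 0.724% of all probe sets. Averaged over the times it fell by 0.16 (change -0.16 ± 0.03 SE, 0.894 of the dark level, adjusted p = 0.00976). At CT22 it fell to 0.865 of the dark level (-0.21 ± 0.05 SE, adjusted p = 0.0468). The changes at CT6 (-0.13, adjusted p = 0.414) and CT14 (-0.14, adjusted p = 0.244) did not pass. With arrays centred on their medians the change at CT6 was 0.07. As deposited the CT6 pairs overlapped, 12.09 and 11.96 in light against 11.99 and 12.06 in dark. Its light effect gave no evidence of differing between times (F test, adjusted p = 0.803).

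The size of the RPS15 change depended on the scaling of the arrays. As deposited, 2 of its light arrays lay below all dark arrays, with arrays centred on their medians 1 did, and with cyclic loess normalization 6 did. Set against the median of the ribosomal protein genes in the same array, RPS15 was lower in all 6 light arrays than in any dark array under all 4 scalings, by a narrow margin. The deposited and the median-centred values are the same by construction once the array's own median of these genes is taken away, so the 4 are not separate checks. The values ran from -0.14 to -0.01 in light and from -0.00283 to 0.12 in dark with quantile normalization. The CT22 call remained in 4 of 24 alternative analyses (adjusted p from 0.0309 to 0.446), and the call for the average in 19 of 24 (0.00629 to 0.569).

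RPS16 reaches with its tail toward the tRNA in the peptidyl site. Its level was 12.61 and 12.55 in CT6 light against 12.67 and 12.61 in CT6 dark, 12.56 and 12.69 in CT14 light against 12.69 and 12.72 in CT14 dark, and 12.49 and 12.64 in CT22 light against 12.95 and 12.83 in CT22 dark. The groups were separate at CT22, where the dark pair was the highest of all groups and light fell to 0.798 of it (-0.33 ± 0.07 SE, adjusted p = 0.0163). With median centring the dark pair of CT22 was not the highest: RPS16 read 12.81 and 12.74 there, against 12.81 and 12.80 in CT14 dark. The changes were -0.06 at CT6 (adjusted p = 0.818) and -0.08 at CT14 (adjusted p = 0.640), and the average over times was -0.16 ± 0.04 SE (adjusted p = 0.0433). The difference of the light effect at CT22 from that at CT14 was -0.24 (adjusted p = 0.209) and from that at CT6 -0.27 (adjusted p = 0.299), so it is not shown that the effect is particular to CT22.

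The CT22 call for RPS16 remained in 18 of 24 alternatives and the call for the average in 9 of 24. The CT22 call was lost as deposited, with median centring, with no filter and with no variance trend. It depended on single arrays too. Without replicate 1 of CT22 dark the change was -0.26, and without replicate 1 of CT22 light it was -0.25. Markers of some cell types differed between these groups too. The summed pineal and photoreceptor markers were 26529 and 24863 in CT22 light against 29628 and 28741 in CT22 dark, and 3 of the 9, AANAT, PDC and PDE6G, passed the test and were lower in light. The glial markers summed to 969 and 860 in CT22 light against 1240 and 1180 in CT22 dark, with 2 of 3 tested lower (MBP and GFAP). Those of choroid plexus summed to 8807 and 8291 in CT22 light against 7776 and 8169 in CT22 dark, with 2 of 4 higher (FOLR1 and KL). Of 7 fibroblast and meninges markers, COL1A1 and COL1A2 passed as higher, with 5 above 0 and 2 below (median change 0.03). Their sums overlapped, 10479 and 9908 in CT22 light against 9390 and 10089 in CT22 dark. Of 6 tested endothelial and mural markers CLDN5 passed as higher, with 3 above 0 and 3 below (median -0.01). The sums of this list overlapped as well, 1910 and 2041 in CT22 light against 2010 and 1880 in CT22 dark. The part of these cell types in the changes of RPS15 and RPS16 was not tested. The actin ratio was 3.62 and 3.98 in CT22 light against 3.94 and 4.10 in CT22 dark. With this ratio as a covariate RPS16 alone passed at CT22 and no gene passed in the average.

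**Figure D3:**
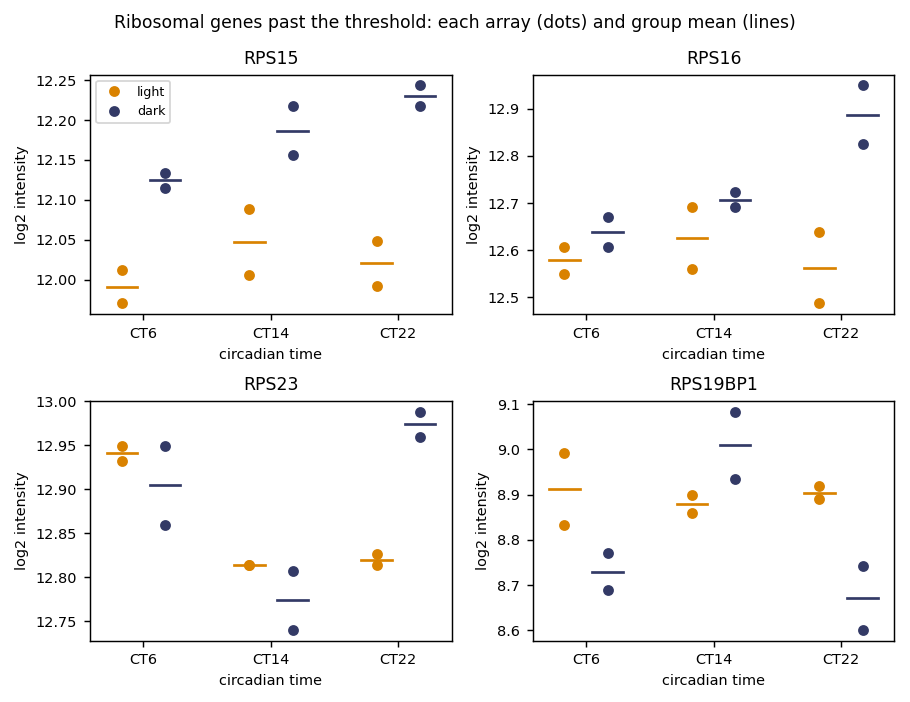
Log2 intensity after quantile normalization of the 4 genes past the threshold in any comparison, for each array (dots) and group mean (lines), light left of dark at each time; the axes do not start at 0. RPS15 is lower in light at all times. At CT6 this did not hold with median centring, and as deposited its light and dark pairs overlapped there. RPS16 and RPS23 are highest in CT22 dark, and RPS19BP1 is highest in CT14 dark and lowest in CT22 dark.

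Among the other small-subunit genes, RPS26, which lines the channel where mRNA leaves the ribosome, was next in order in the average over times (-0.13 ± 0.04 SE, adjusted p = 0.0698). It had 11.39 and 11.29 in CT6 light against 11.52 and 11.54 in CT6 dark, 11.39 and 11.38 in CT14 light against 11.36 and 11.52 in CT14 dark, and 11.34 and 11.37 in CT22 light against 11.48 and 11.54 in CT22 dark. The groups were separate at CT6 and CT22 and overlapped at CT14. As deposited and with median centring they overlapped at CT6, where the change with median centring was 0.01, and with median centring they overlapped at CT22 as well. RPS23, at the decoding centre, changed by -0.15 at CT22 (adjusted p = 0.113). RPS27L, a paralogue of RPS27 that p53 induces in human cells, had 8.39 and 8.50 in CT14 light against 8.82 and 8.78 in CT14 dark, a change of -0.36 ± 0.12 SE that did not pass (adjusted p = 0.188). Over the 24 alternative analyses this change ran from -0.41 to -0.01. RPS6 changed by 0.00 in the average, with a 95% confidence interval from -0.06 to 0.07, and RPS27A by -0.03. RPS28 had changes of -0.04, -0.10 and -0.17 at CT6, CT14 and CT22, with an adjusted p of 0.283 for the largest.

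No large-subunit gene passed in any light comparison. RPL4, a core protein of the peptide exit tunnel, came closest in the average (-0.09 ± 0.03 SE, adjusted p = 0.147). It had 11.87 and 11.80 in CT6 light against 11.93 and 11.93 in CT6 dark, 11.83 and 11.78 in CT14 light against 11.98 and 11.92 in CT14 dark, and 11.75 and 11.81 in CT22 light against 11.80 and 11.83 in CT22 dark. The groups were separate at CT6 and CT14 and overlapped at CT22. A further probe set of RPL4 of like brightness (mean 11.6) changed by -0.11, -0.03 and -0.09 at CT6, CT14 and CT22. In the average it changed by -0.08 (adjusted p = 0.349). RPL29 changed by -0.21 ± 0.07 SE at CT22 (adjusted p = 0.167): 11.03 and 10.99 in CT22 light against 11.21 and 11.22 in CT22 dark. A further probe set of RPL29 of like brightness (mean 10.9) changed by -0.05 (adjusted p = 0.947), and its dimmer ones by 0.08, 0.15 and -0.10. RPL37 changed by 0.13 at CT6 (adjusted p = 0.455) and RPL9 by 0.11 (adjusted p = 0.510). RPL5 and RPL11, the partners of the 5S RNA, each changed by -0.01 in the average.

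The stalk of the large subunit, built of RPLP0 with the acidic proteins RPLP1 and RPLP2, recruits the factors that drive translation. RPLP1 had 12.11 and 12.18 in CT14 light against 12.30 and 12.31 in CT14 dark, a change of -0.16 ± 0.06 SE that did not pass (adjusted p = 0.191). In the average over times the changes were -0.07 for RPLP0 (adjusted p = 0.391), -0.07 for RPLP1 (0.313) and 0.06 for RPLP2 (0.612).

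Some other genes carry names of paralogues in the platform annotation. No gene named RPL39 or RPL26 is among the members, so the probe sets named RPL39L and RPL26L1 may measure the chicken counterparts of those core proteins. The average light effect was -0.03 for RPL22L1 (95% confidence interval from -0.18 to 0.13), -0.02 for RPL7L1 (from -0.13 to 0.09), 0.00 for RPL39L (from -0.06 to 0.07) and -0.06 for RPL26L1 (from -0.14 to 0.02). The symbols of some ribosomal proteins fall outside the name rule. Among these RPSA, matched by synonym to the symbol RPSAP58, changed by -0.10 (adjusted p = 0.195), and RACK1, a scaffold on the small subunit, by -0.04 (adjusted p = 0.676).

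The second question was whether the mRNAs differed between times of day in the dark. The CT14 dark group enters both comparisons between neighbouring times and also the light comparison at CT14, so these 3 are not independent. Between CT14 and CT6, 0 of 66 genes passed (background 3.46%), with 8 at an unadjusted p under 0.05 (background 17.1%). Between CT22 and CT14, 2 passed, RPS23 higher and RPS19BP1 lower at CT22, where 6.54% of all probe sets passed in either direction and 3.27% in each. The unadjusted count was 8 (background 19.6%). Between CT22 and CT6, 0 passed (background 1.11%), with 2 at an unadjusted p under 0.05 (background 11.4%). The F test over the 3 dark groups passed for 0 genes, where 6.43% of all probe sets passed.

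RPS23 had 12.95 and 12.86 in CT6 dark, 12.74 and 12.81 in CT14 dark and 12.96 and 12.99 in CT22 dark. The CT14 pair was the lowest and did not overlap with the other pairs, and CT22 was higher than CT14 by 0.20 ± 0.05 SE (adjusted p = 0.0273). The call remained in 16 of 24 alternatives. With arrays centred on their medians the change was -0.02 (adjusted p = 0.905). RPS19BP1 had 8.77 and 8.69 in CT6 dark, 9.08 and 8.93 in CT14 dark and 8.60 and 8.74 in CT22 dark. It was lower at CT22 than at CT14 by 0.34 on the log2 scale (-0.34 ± 0.09 SE, adjusted p = 0.0425), a call kept in 6 of 24 alternatives, and the value with the deposited scale was 0.01 (adjusted p = 0.976). Its other probe set changed by -0.17 (adjusted p = 0.323) and, between CT14 and CT6, by 0.37 (adjusted p = 0.0406), where the main probe set changed by 0.28 (adjusted p = 0.122).

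Other genes did not pass. RPL7 had 12.22 and 12.19 in CT6 dark, 12.36 and 12.39 in CT14 dark and 12.29 and 12.25 in CT22 dark, and its 3 pairs did not overlap. Its change at CT14 over CT6 was 0.18 ± 0.05 SE (adjusted p = 0.0789), and it passed in 1 of 24 alternatives. RPL9 changed by 0.18 between CT14 and CT6 (adjusted p = 0.0895, passed in 2 of 24 alternatives) and by 0.15 between CT22 and CT6 (adjusted p = 0.250, passed in 0). A further bright probe set of RPL9 (mean 11.3) changed by 0.21 and 0.01 in these comparisons. Its dimmer ones changed by 0.11 and 1.10 in the first and by 0.04 and 0.94 in the second. RPS16 changed by 0.25 between CT22 and CT6 (adjusted p = 0.109), which passed in 1 of 24 alternatives. Between CT22 and CT14 it changed by 0.18 (adjusted p = 0.132, passed in 0), where it was -0.03 with median centring. RPL3, at the peptidyl transferase centre, changed by -0.14 between CT22 and CT14 (adjusted p = 0.161). As deposited this was 0.02, and it passed in 2 of 24 alternatives, with median centring (-0.31) and with cyclic loess (-0.21). RPL4 changed by -0.11 between CT22 and CT6 (adjusted p = 0.465), and by 0.12 as deposited. Its further probe set changed by -0.03 (adjusted p = 0.932).

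Below the threshold, the family as a group showed small shifts at CT14 in the dark. The change of CT14 over CT6 was above 0 for 53 of 66 genes, with a median of 0.06, where 50.5% of all probe sets were above 0. The groups did not overlap, with CT14 higher, for 29 genes (43.9%; background 23%), and with CT14 lower for 3 (background 22.9%). The median was above 0 under all 4 scalings (0.06, 0.10 as deposited, 0.22 with median centring, 0.05 with cyclic loess). The change of CT22 over CT14 was above 0 for 21 genes, against 52.2% of all probe sets. Its median was -0.05, and -0.21 with median centring. As deposited the median was 0.12, where that of all probe sets was 0.367. After quantile normalization CT22 was separate and lower for 24 (36.4%, background 23.6%) and separate and higher for 7 (background 25.6%). The change of CT22 over CT6 was above 0 for 41 genes, with a median of 0.01, against 50.9% of all probe sets. As deposited it was above 0 for 66 of 66 (median 0.23), where the median change of all probe sets was higher still, 0.276. With median centring it was above 0 for 42 and with cyclic loess for 12 (median -0.06). After quantile normalization CT22 was separate and higher for 15 (background 22%) and lower for 6 (background 20.5%). These genes are measured on the same 4 arrays and move together, so the counts describe those arrays and no test was made of them.

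The shift was greater in the large subunit. For CT14 over CT6, 38 of 42 large-subunit genes were above 0 (median 0.07), against 14 of 23 small-subunit genes (median 0.02). The groups were separate, with CT14 higher, for 23 large-subunit genes (54.8%) and 5 small-subunit genes (21.7%). The background for this was 23% of all probe sets, so the small-subunit count is near the background. For CT22 over CT14, 7 of 42 large-subunit genes were above 0 (median -0.08) against 14 of 23 small-subunit genes (median 0.02). As deposited 41 of 42 and 23 of 23 were above 0, where the median change of all probe sets was 0.367. The large-subunit median exceeded the small-subunit median by 0.0552 to 0.0577 in the first comparison and lay below it by the values -0.0777 to -0.0987 in the second, over the 4 scalings. The deposited and the median-centred values give the same difference by construction, so the 4 are not separate checks. In the single CT14 dark arrays, 31 and 35 of the 42 large-subunit genes were above their own mean, against 11 and 14 of 23 small-subunit genes. For the light comparison at CT14, which shares these arrays, 10 of 42 large-subunit genes were above 0 (median -0.05) and 11 of 23 small-subunit genes (median -0.03). As deposited 23 and 17 were, where the median change of all probe sets was 0.125. The difference between the subunits was not tested.

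**Figure D4:**
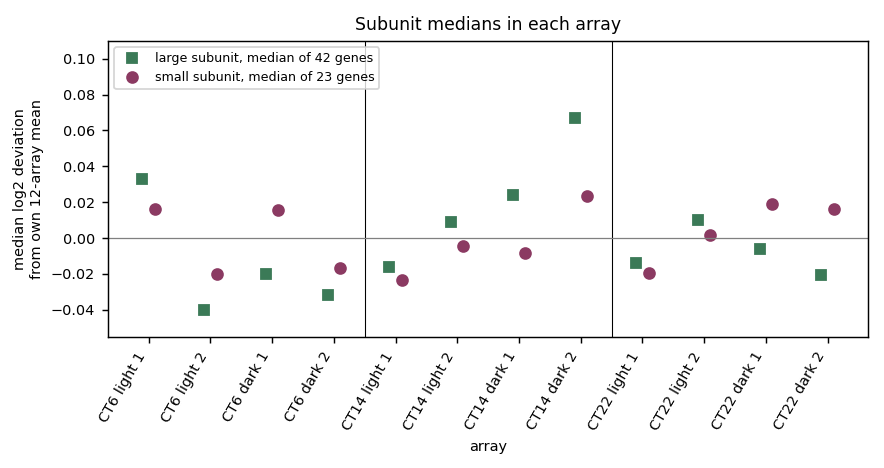
Median deviation of the large-subunit genes (squares, 42 genes) and small-subunit genes (circles, 23 genes) from each gene's own mean over the 12 arrays, in log2 after quantile normalization, for each array. The CT14 dark arrays have large-subunit medians of 0.02 and 0.07, and replicate 1 of CT6 light has 0.03, while replicate 2 of CT6 light has the lowest, -0.04.

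Some other measures of the CT14 dark arrays differed too. The actin ratio and the choroid plexus sums overlapped with those of CT6 dark. The actin ratio was 4.67 and 3.95 in CT14 dark, against 3.89 and 4.17 in CT6 dark, and 3.28 and 3.09 in CT14 light. The pineal and photoreceptor markers summed to 25364 and 25974 in CT14 dark against 28448 and 27927 in CT6 dark, and 4 of the 9 passed as lower (OPNP, RBP3, ASMT and PDE6G) and AANAT as higher. Markers of fibroblasts and meninges summed to 9442 and 8686 in CT14 dark against 9921 and 10167 in CT6 dark, with 3 of 7 lower (COL1A1, COL1A2 and PDGFRA). Those of choroid plexus summed to 9321 and 8542 in CT14 dark against 8171 and 9008 in CT6 dark, and 0 of 4 passed (median change 0.45). Of 8 macrophage markers, LY86 passed as higher for CT14 over CT6, with 5 above 0 and 3 below (median change 0.07). Of 9 tested lymphocyte markers 0 passed in that comparison (median change -0.39). Erythrocyte markers summed to 8315 and 8959 in CT14 dark against 6091 and 6552 in CT14 light, and 0 of 6 passed (median change -0.68, light minus dark). For CT22 over CT14, 3 of the 4 choroid plexus markers passed as lower (KL, FOLR1 and CLIC6, median -0.74). In that comparison 4 of the 9 pineal and photoreceptor markers passed as higher (RBP3, AANAT, PDE6G and ASMT). COL1A1, the glial marker GFAP and 2 of 5 neuron markers, NEFL and NEFM, passed as higher too. The changes were above 0 for 6 fibroblast and meninges markers and below for 1, and above 0 for 2 tested glial markers and below for 1. All 5 neuron markers were above 0. The part of these cell types in the shift was not tested. When the actin ratio was added to the fit, the median change of CT14 over CT6 was 0.06 and that of CT22 over CT14 was -0.03, and no gene passed for CT22 over CT14.

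The sign of the family's median in the other comparisons depended on how the arrays were scaled. The median probe set as deposited lay higher in CT22 dark than in CT14 dark by 0.367, higher in CT22 dark than in CT6 dark by 0.276, higher in CT14 light than in CT14 dark by 0.125, and differed by -0.113 between CT22 light and CT22 dark. Relative to that median, the family changed by -0.250, -0.0474, -0.108 and 0.110 in these comparisons, by 0.134 for light at CT6 and by 0.181 for CT14 over CT6 in the dark. After quantile normalization the relative changes were -0.0625, 0.00946, -0.0389, 0.0160, 0.0238 and 0.0596 in the same order. With cyclic loess they were -0.124, -0.0587, -0.0651, 0.0212, -0.0178 and 0.0475. Relative to all probe sets, the sign thus differed between scalings, among these comparisons, only for CT22 over CT6 and for light at CT6. It differed for the light average as well: -0.00333 after quantile normalization, 0.0449 as deposited and -0.0243 with cyclic loess. Median centring, which adjusts every array to its middle, gave 13 of 66 genes past the threshold for CT14 over CT6, all higher, where 3.97% of all probe sets passed in either direction and 2.51% higher. For CT22 over CT14 it gave 21 of 66, all lower, where 6.53% passed in either direction and 3.2% lower. These are the counts under 1 of the 4 scalings. The others gave 0 for the first comparison, where 1.83% to 3.46% of all probe sets passed. For the second, quantile normalization gave 1 higher and 1 lower (background 3.27% each). The deposited values gave 2, both higher, where 22.2% of all probe sets passed as higher. Cyclic loess gave 5, all lower, where 3.38% passed as lower. Which scaling is the better one was not tested.

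**Figure D5:**
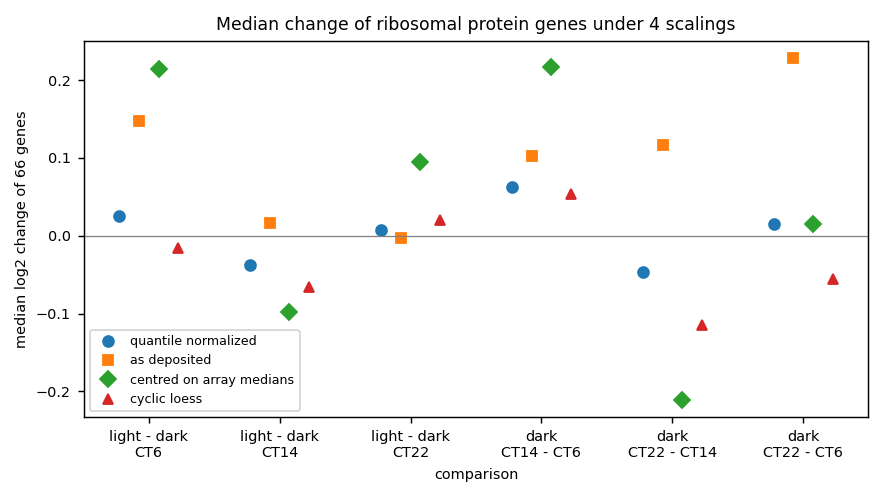
Median log2 change of the 66 ribosomal protein genes in each comparison under 4 scalings of the arrays. All 4 scalings lie above 0 for CT14 over CT6 in the dark; for CT6, CT14 and CT22 light and for CT22 over CT14 and over CT6 in the dark the sign differs between scalings.

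The 67 genes had 74 further probe sets, of which 55 were tested and 16 had a mean above log2 10. Few of them passed. A further probe set of RPL27 (mean 5.51) was higher in CT22 light by 0.92 (adjusted p = 0.0306), while another of RPL27 (mean 6.05) changed by -0.45 (adjusted p = 0.276), so the probe sets of this gene disagree; the other was that of RPS19BP1 given above. Changes of the further probe sets had the sign of the main probe set in 33 of 55 for light at CT6, 30 at CT14 and 23 at CT22. In the dark this held for 33 for CT14 over CT6 and for 29 for CT22 over CT14. Their median change was 0.04 for CT14 over CT6. For CT22 over CT14 it was 0.03, where that of the main probe sets was -0.05. RPS15 and RPS16 have 1 probe set each, so no further probe set bears on their changes. By the suffix of the probe set ID, 25 of the 67 probe sets are of the plain kind, including those of RPS15 and RPS16, 25 are of the kind that can match several transcripts of 1 gene, and 15 and 2 are of the kinds that can also match other genes. Values of the last kinds, those of RPS26, RPL4, RPL7 and RPLP1 among them, may be shared with close copies.

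Genes that act around the ribosome were read from lists that the earlier results of these data had already informed. The share of all probe sets past the threshold, given above, was 0.221% at CT6, 1.67% at CT14, 3.64% at CT22 and 3% in the average for light, and 3.46% for CT14 over CT6, 6.54% for CT22 over CT14 and 1.11% for CT22 over CT6 in the dark, so the lists' counts of 0 to 3 genes are not read as results about a list. A list of 18 genes, most of them translation factors, was drawn up as mRNAs of the class with the same 5′ tract. The tract was not checked in chicken sequence. Of these 18, 0 passed at any single light time. NACA, a nascent chain partner, was higher in the average over times (0.24 ± 0.06 SE, adjusted p = 0.0421). The median of the list in that comparison was -0.05. EIF3H was lower in CT22 dark than in CT14 dark (-0.25 ± 0.06 SE, adjusted p = 0.0264). Of 65 tested mitochondrial ribosomal proteins, MRPS22 and MRPL18 passed at CT22, both higher in light (0.51 and 0.45, adjusted p = 0.0359 and 0.0328), and 0 passed at CT6 or CT14. In the dark, MRPL44 was higher at CT14 than at CT6 (0.40, adjusted p = 0.0301) and MRPS12 lower at CT22 than at CT14 (-0.57, adjusted p = 0.0348). Their median was 0.09 for CT14 over CT6 in the dark (47 of 65 above 0, beside 50.5% of all probe sets) and -0.06 for CT22 over CT14.

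Of 52 tested genes of ribosome assembly and ribosomal RNA synthesis, LSG1 had the largest light effect at each time. LSG1 is a GTPase that frees the new large subunit from its export adaptor in the cytoplasm. It was higher in light by 1.42 ± 0.10 SE at CT6 (adjusted p = 2.83e-05), 2.34 at CT14 (7.37e-08) and 1.01 at CT22 (0.000132). In the dark it was lower at CT14 than at CT6 (-0.84, adjusted p = 0.000689), higher at CT22 than at CT14 (1.52, 3.16e-06) and higher at CT22 than at CT6 (0.67, 0.00661). RRN3, which brings RNA polymerase I to the ribosomal RNA genes, was higher in light at CT22 (0.62 ± 0.13 SE, adjusted p = 0.0165) and MDN1, an AAA ATPase of large-subunit assembly, was lower (-0.64, adjusted p = 0.0397). In the dark LTV1, an export factor of the small subunit, was higher at CT14 than at CT6 (1.06, adjusted p = 0.0387) and lower at CT22 than at CT14 (-1.0, adjusted p = 0.0337), and nucleolin (NCL) was higher at CT22 than at CT14 (0.33, adjusted p = 0.0357). The list median was 0.03 at CT6, -0.00015 at CT14 and 0.00893 at CT22.

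Of 28 tested genes that control translation through mTOR and the eIF2 kinases, 0 passed at a single light time. RPS6KA1, a kinase of the RSK family, was higher in light in the average over times (0.36 ± 0.08 SE, adjusted p = 0.0321) and higher at CT22 than at CT14 in the dark (0.57, adjusted p = 0.0292). SESN1, a sestrin that restrains mTOR complex 1, was lower in CT22 dark than in CT14 dark (-0.65 ± 0.09 SE, adjusted p = 0.000959) and than in CT6 dark (-0.52, adjusted p = 0.0172).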

How the data were processed

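Each of the 12 columns holds an intensity that the authors deposited for every probe set, on a linear scale; no source used here names the software or scaling behind it. Depth does not apply to arrays; their number, 2 per group, limits the precision, and p-values measure the spread between these pooled samples. Deposited array medians were 20.1 to 28.9, and 6.24% of values were under 1. Of 38535 probe sets, 96 controls were left out. The platform annotation names 1 gene for 27168, several for 177 and none for 11094; 1 probe set shared by several genes including a ribosomal protein was left out. All 67 symbols were current in the RefSeq gene table. No genome was used, so no coordinates or sequences are given.

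Values were taken to log2, quantile normalized over all probe sets, and set to 1 (linear) where lower. Those whose mean exceeded the 40th percentile (log2 3.73) were fitted with limma 3.58.1 in R 4.3.3: 6 group means, 6 residual degrees of freedom, a variance trend (prior degrees of freedom 7.28) and Benjamini-Hochberg adjustment over all 23063, with a threshold of 0.05. The fit was tested on simulated data. Background counts give the share of all 23063 probe sets past the same rule.

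The members and lists were chosen with earlier results of these data known. Genes were named by rule: per comparison, members past the threshold, or the 4 with the smallest p where fewer than 4 passed; the 8 widest and 4 narrowest ranges; paralogues; and the stalk, RPS6, RPS27A, RPL5 and RPL11. Of the lists, genes past the threshold were named. RPL31, RPL27 and the genes under log2 10 were named after their values were seen.

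The alternatives were 3 other scalings, a constant of 16 before log2, other filters, the replicate block, the actin ratio as a covariate, no variance trend, other probe sets per gene, only the groups compared, and leaving out each array.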

Additional observations from a re-analysis of the deposited data

How the results depend on the processing

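Each count and median was computed again under 24 alternatives (23 for the F tests); 298 of 382 such values kept their count within 1.5 times or their median within 0.0235, and of 672 values of single genes 582 kept direction and side of the threshold, 70 lost the threshold, 11 gained it and 9 reversed. The cause of a change was not tested. Cyclic loess was chosen after seeing the data. The counts of genes past the threshold were 2 for light at CT22, 2 for the light average and 2 for CT22 over CT14 in the dark. As deposited they were 0, 0 and 2 (RPS23 and RPS28, in place of RPS23 and RPS19BP1), with 1 for CT22 over CT6 and 1 for the F test in the dark. The shares of all probe sets as deposited were 23.4% for CT22 over CT14 and 5.45% for CT22 over CT6. With median centring the counts were 0, 0 and 21, with 3 for light at CT6, 13 for CT14 over CT6, 17 for the dark F test and 1 for the light F test. The shares were 6.53% for CT22 over CT14, 1.08% for light at CT6 and 3.97% for CT14 over CT6. No filter gave 0 for all 3, as did no variance trend. Cyclic loess gave 1 at CT22, beside 3.58% of all probe sets, and 5 in CT22 over CT14, beside 6.54%. For the F tests under these scalings, and for the alternatives that follow, no share is given. Those counts are not read as results about the family. The actin covariate gave 1, 0 and 0. Only the groups compared gave 1 at CT22 and 1 for CT22 over CT14. The dimmest probe set per gene gave 1 for CT14 over CT6 and 1 for CT22 over CT14. The mean of the probe sets gave 2 for CT14 over CT6, 3 for the dark F test and 1 for the light F test, and the filter at the 60th percentile gave 1 for the dark F test. Leaving out single arrays gave 0 to 1 at CT22, 1 to 2 for the average, 0 to 2 for CT22 over CT14 and 0 to 2 for the dark F test; without replicate 1 of CT22 dark or of CT22 light it was 0 at CT22, and without replicate 1 of CT14 dark or either CT22 dark array it was 0 for CT22 over CT14.

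The replicate block gave 1 gene at CT22 and 1 in the average, with no other count changed; the arrays share only a number, since deviations of same-numbered arrays correlated at -0.0283 to 0.0284 over 15 pairs of groups.

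The median change moved with scaling. As deposited it was 0.148 for light at CT6, 0.0171 at CT14, 0.0531 in the average, 0.102 for CT14 over CT6, 0.117 for CT22 over CT14 and 0.229 for CT22 over CT6. With median centring it was 0.215, -0.0981 and 0.0944 for light at CT6, CT14 and CT22, 0.0694 in the average, 0.217 for CT14 over CT6 and -0.211 for CT22 over CT14. Cyclic loess gave -0.0161 for light at CT6, -0.0652 at CT14, -0.114 for CT22 over CT14 and -0.0550 for CT22 over CT6. The dimmest probe set per gene gave 0.0285 for CT14 over CT6 and -0.0205 for CT22 over CT14, where the mean of the probe sets also gave -0.0205. Leaving out an array gave -0.0137 to 0.0699 for light at CT6, with the lowest value without replicate 1 of CT6 light and the highest without replicate 2. The single genes that reversed as deposited were RPL3 (0.0227) and RPS19BP1 (0.00545) for CT22 over CT14 and RPL4 (0.124) for CT22 over CT6. With median centring they were RPS15 (0.0657) and RPS26 (0.0139) for light at CT6, RPS23 for CT14 over CT6 (0.00308), and RPS16 (-0.0321) and RPS23 (-0.0179) for CT22 over CT14. With the actin covariate it was RPL4 for light at CT14 (0.00288).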
